A study of Homo sapiens with 8 samples.

Results

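The RNA of PANC-1 cells that had received a control siRNA is described here from 4 of the 8 libraries of a study of BARD1 in pancreatic cancer. PANC-1 is an established line from a human pancreatic ductal adenocarcinoma, and the labels give its genotype as WT. The 4 libraries were chosen by their label alone: siSCR, a control siRNA written SCR in the labels, with cells harvested 48 h after transfection (replicates 1, 3, 4 and 5). The other 4 libraries, from cells given an siRNA against BARD1, were not used. All 4 siSCR libraries therefore share the transfection, and nothing here describes untransfected cells. No label states that the replicates were grown as separate cultures, so every spread below may be technical.

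The libraries were made from RNA selected with poly-T oligonucleotides, so RNAs without a poly(A) tail are under-counted. The 4 libraries held 24367315, 17816547, 21797561 and 20395146 counts for replicates 1, 3, 4 and 5. Between 21953 and 22887 of the 58735 listed genes had at least 1 count in a library. Levels are the deposited FPKM, which are counts scaled to gene length and library size, and 1 FPKM corresponded to between 3.74 and 3.999 TPM, the same quantity scaled to an equal sum in every library. A gene is called expressed here at a mean of at least 1 FPKM over the 4 libraries, and errors are SD with n = 4. BARD1 itself had 2.85, 3.64, 2.92 and 3.40 FPKM in replicates 1, 3, 4 and 5. No result below is a test between groups, since the 4 libraries are a single group.

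Pancreatic ductal adenocarcinoma arises in an organ that holds enzyme-secreting acinar cells, hormone-secreting islet cells and the keratin-rich duct lining. Each of these cells is recognised by a few very abundant messenger RNAs, such as those of digestive enzymes, insulin and the duct keratins. The tumour type is known for loss of CDKN2A and SMAD4 function, among other changes. PANC-1 is known from earlier work for a deletion that covers CDKN2A on the short arm of chromosome 9, and an amplification on the long arm of chromosome 19. DNA was not measured in these libraries.

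PANC-1 cells expressed 10450 of 19951 protein-coding genes, or 52.4%. A further 5585 had counts but a mean below 1 FPKM, and 3916, or 19.6%, had no count in any of the 4 libraries. The number at 1 FPKM or more ranged from 10397 to 10482 across the single libraries, and 10191 genes reached 1 FPKM in every library. Most expressed genes were of moderate level. Genes between 1 and 10 FPKM numbered 5827 and took 16.9% of all counts, while the 4293 genes between 10 and 100 FPKM took 53.8%. Only 310 genes lay between 100 and 1000 FPKM, with 21.1% of the counts, and 20 reached 1000 FPKM or more, with 5.95%. The median expressed gene had 8.47 FPKM. Among expressed nuclear genes, the more abundant were shorter. Median gene length was 5699 bases at 1 to 10 FPKM, 4498 at 10 to 100 FPKM and 2974 at 100 to 1000 FPKM. Since FPKM divides the count by gene length, level and length are not independent here. The trend did not extend below 1 FPKM: genes with counts there had a median of 4098 bases, and genes without a count 2147.5 bases.

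The long non-coding classes of the annotation contributed little. Of 14992 such genes 702 were expressed, and together they held 0.736% ± 0.058 of the counts. NORAD, a cytoplasmic RNA that binds Pumilio proteins, had the highest level among them at 45.8 ± 1.2 FPKM. It was followed by LRRC75A-AS1 at 42.8 ± 4.4 FPKM and SNHG5, a host of small nucleolar RNAs, at 35.8 ± 3.1 FPKM. FGD5-AS1, GAS5, SNHG6 and EBLN3P also stood among the 10 highest, between 19.7 and 28.2 FPKM. The other 3 of the 10 were the unnamed loci AC099850.3, AL513165.1 and BX322562.1. HOTAIR, a transcript of the HOXC cluster, had 19.1 ± 1.2 FPKM. Of 25 long non-coding RNAs listed for their interest in cancer, 19 were expressed, with a median of 12.7 FPKM. UCA1, LINC01133 and CASC9 had at most 3 counts in every library. H19, an imprinted RNA, varied widely: it had 2.50 FPKM in replicate 1 and 11.3, 7.01 and 1.03 FPKM in replicates 3, 4 and 5.

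The promoters of 5 genes are printed here because their messenger RNAs mark the extremes of what follows: the most abundant nuclear transcript, the gene at the centre of a highly expressed stretch of chromosome 19, a tumour suppressor with no count, and an acinar and an islet gene with no count. Each run holds the 250 bases before an annotated start, 5′ to 3′ on the gene's strand, from RefSeq on GRCh38. CDKN2A has separate starts for its alternative reading frames, and both are given. Capitals mark 3 motifs, each searched on either strand. The TATA box was searched as TATAAA. The GC box, to which Sp1 binds, was searched as GGGCGG. The box bound by NF-Y was searched as CCAAT. The positions are chr19:39435950-39436199 for RPS16, chr19:39391107-39391356 for PAF1, chr9:21995325-21995574 and chr9:21974858-21975107 for CDKN2A, chr10:116545681-116545930 for PNLIP and chr11:2161210-2161459 for INS.
RPS16: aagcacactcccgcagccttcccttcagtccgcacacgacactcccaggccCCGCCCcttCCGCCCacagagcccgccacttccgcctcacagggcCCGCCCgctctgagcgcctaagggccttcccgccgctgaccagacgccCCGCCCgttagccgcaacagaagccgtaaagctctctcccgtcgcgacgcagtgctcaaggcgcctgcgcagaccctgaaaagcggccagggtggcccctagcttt
PAF1: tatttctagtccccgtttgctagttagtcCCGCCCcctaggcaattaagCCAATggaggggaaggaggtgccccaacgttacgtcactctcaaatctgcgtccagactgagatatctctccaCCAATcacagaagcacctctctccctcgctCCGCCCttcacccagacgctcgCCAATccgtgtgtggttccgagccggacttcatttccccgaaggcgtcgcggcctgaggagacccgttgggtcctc
CDKN2A, upstream start: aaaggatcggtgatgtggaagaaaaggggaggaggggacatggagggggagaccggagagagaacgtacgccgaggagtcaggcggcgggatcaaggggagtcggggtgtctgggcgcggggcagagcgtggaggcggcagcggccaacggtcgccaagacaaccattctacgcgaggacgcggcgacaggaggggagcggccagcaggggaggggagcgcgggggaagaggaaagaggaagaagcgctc
CDKN2A, downstream start: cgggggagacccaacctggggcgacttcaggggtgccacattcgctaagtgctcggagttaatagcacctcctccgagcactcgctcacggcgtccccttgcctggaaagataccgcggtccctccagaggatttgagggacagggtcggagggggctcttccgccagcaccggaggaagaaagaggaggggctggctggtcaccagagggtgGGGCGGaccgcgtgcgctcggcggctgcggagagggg
PNLIP: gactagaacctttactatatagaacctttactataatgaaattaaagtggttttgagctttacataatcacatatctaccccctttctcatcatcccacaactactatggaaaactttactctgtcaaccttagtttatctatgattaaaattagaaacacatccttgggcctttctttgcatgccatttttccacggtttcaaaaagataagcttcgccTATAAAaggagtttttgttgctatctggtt
INS: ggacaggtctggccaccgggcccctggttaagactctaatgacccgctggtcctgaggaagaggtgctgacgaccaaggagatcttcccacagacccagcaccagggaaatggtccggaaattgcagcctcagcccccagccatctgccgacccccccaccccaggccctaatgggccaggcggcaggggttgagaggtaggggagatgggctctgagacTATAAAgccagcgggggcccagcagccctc

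The RPS16 window holds 4 copies of GGGCGG and 24 CpG dinucleotides, and the PAF1 window holds 2 copies of GGGCGG and 3 of CCAAT. The CDKN2A windows are as CpG-rich, with 24 and 20 CpG dinucleotides, and the downstream one holds 1 GGGCGG. The windows of PNLIP, pancreatic lipase, and INS, insulin, each hold 1 TATAAA and no GGGCGG, with 2 and 7 CpG dinucleotides. Over 27305 human promoters of the same length, 1 for each symbol listed by RefSeq, TATAAA occurred in 11.1%, GGGCGG in 42.3% and CCAAT in 33.0%. These matches describe the letters of the reference and were not tested against levels.

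The most abundant messenger RNAs came from mitochondrial DNA and from genes of translation, the cytoskeleton and iron storage. The 20 genes with the most counts took 7.72% ± 0.22 of a library, and the 1000 with the most counts took 49.0% ± 0.47. MT-CO2, a cytochrome oxidase subunit, led with 2518 FPKM in replicate 1 and 4060, 4608 and 3486 FPKM in replicates 3, 4 and 5. RPS16, a protein of the small ribosomal subunit, came next and was the highest nuclear gene: it had 3069 FPKM in replicate 1 and 3704, 3262 and 2810 FPKM in the others. The replicate 1 value of MT-CO2 lay below the other 3, whereas that of RPS16 lay among them.

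Of the 25 highest protein-coding genes, 10 were encoded in mitochondrial DNA, with means between 1196 FPKM for MT-CYB and 3668 FPKM for MT-CO2. The translation factor EEF1A1 had 1971 ± 113 FPKM, and part of its level may be shared with its processed pseudogenes in the counting. Cytoskeletal genes followed, with 1889 ± 112 FPKM for ACTB, 1718 ± 78 FPKM for ACTG1, 1279 ± 154 FPKM for TMSB10 and 1142 ± 116 FPKM for TMSB4X. FTL, the ferritin light chain, had 1386 ± 111 FPKM, and S100A6, a small calcium-binding protein abundant in ductal tumours, had 1284 ± 176 FPKM. FBL, the methyltransferase of box C/D small nucleolar RNPs, had 1206 ± 102 FPKM, and PSMC4, an ATPase of the proteasome cap, had 1076 ± 32 FPKM. HSP90AB1, GAPDH, RPS12, PSAP and YBX1 completed the 25, between 686 and 992 FPKM. RPS16, FBL and PSMC4 lie in the same band of chromosome 19.

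**Figure D1:**
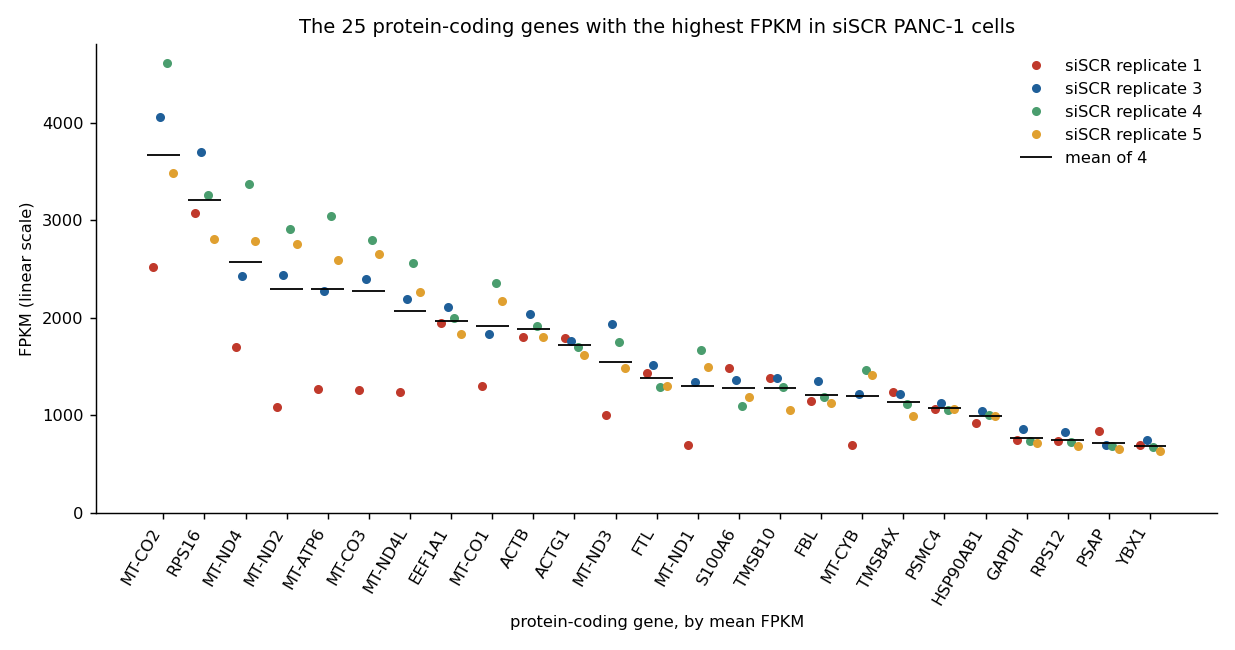
FPKM on a linear axis of the 25 protein-coding genes with the highest mean, with a point for each siSCR library and a line for the mean of 4. The 10 mitochondrially encoded genes are lowest in replicate 1, for example MT-ND2 at 1083 FPKM against 2440, 2914 and 2752 FPKM, while the nuclear genes of replicate 1 lie near the other libraries.

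A stretch of 19q13.2 from EIF3K to AKT2 was expressed far above the rest of the genome. On GRCh38 it runs over chr19:38619082-40285536, or 1.67 Mb, and its ends were set after the levels had been seen. It holds 55 protein-coding genes, of which 36 were expressed, and the median of those 36 was 88.7 FPKM. The expressed genes of the 1.5 Mb before it had a median of 4.27 FPKM and those of the 1.5 Mb after it 9.06 FPKM. The median was 6.88 FPKM over the expressed genes of the rest of chromosome 19 and 8.43 FPKM over all other expressed genes. A level of at least 100 FPKM was reached by 17 of the 55 genes, or 30.9%, compared with 1.57% of all other protein-coding genes. The stretch took 3.57% of all counts.

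The pattern held in each library. The median over the genes expressed in that library was 87.2 FPKM in replicate 1 and 90.7, 86.1 and 83.6 FPKM in replicates 3, 4 and 5. When the genome was read in windows of 15 consecutive expressed genes, the highest of 10110 window medians was 190.6 FPKM, from LRFN1 to PSMC4. The first 27 windows all touched the stretch. The highest window elsewhere was on chromosome X, from NAA10 to LAGE3, at 42.8 FPKM, and the median window had 8.54 FPKM.

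Levels inside the stretch ran from 0 to 3211 FPKM, and not every expressed gene was high: SARS2, a mitochondrial seryl-tRNA synthetase, had 5.38 ± 0.77 FPKM and SIRT2, a deacetylase, had 28.9 ± 0.75 FPKM. Other genes overlap 46.2% of the exon bases of SARS2, where reads may have gone uncounted. PAF1, a subunit of the elongation complex of that name that was first isolated from PANC-1 cells as PD2, had 594.8, 652.6, 595.7 and 597.6 FPKM in replicates 1, 3, 4 and 5. AKT2, a serine-threonine kinase of insulin and growth factor signalling, had 190.8, 200.3, 193.4 and 191.1 FPKM. ACTN4, an actin crosslinker, had 686 ± 17 FPKM, and MED29, a Mediator subunit beside PAF1, had 299 ± 9 FPKM. SUPT5H, an elongation factor, had 230 ± 13 FPKM, and the kinases DYRK1B, MAP3K10 and PAK4 had 92.0 ± 8.9, 76.9 ± 6.9 and 74.3 ± 2.6 FPKM. DLL3, a Notch ligand studied as a surface target in neuroendocrine tumours, had 73.3 ± 5.9 FPKM. FBXO27, a substrate receptor of a ubiquitin ligase, had 232 ± 17 FPKM. SYCN, an acinar granule protein, and the galectins LGALS13 and LGALS16 had 0 FPKM in all 4 libraries. The interferon lambda genes IFNL1, IFNL2 and IFNL3 had means of at most 0.078 FPKM. LGALS4, an intestinal galectin, had 0.92 ± 0.23 FPKM. These genes outside the named-gene rule were chosen after their values were seen.

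**Figure D2:**
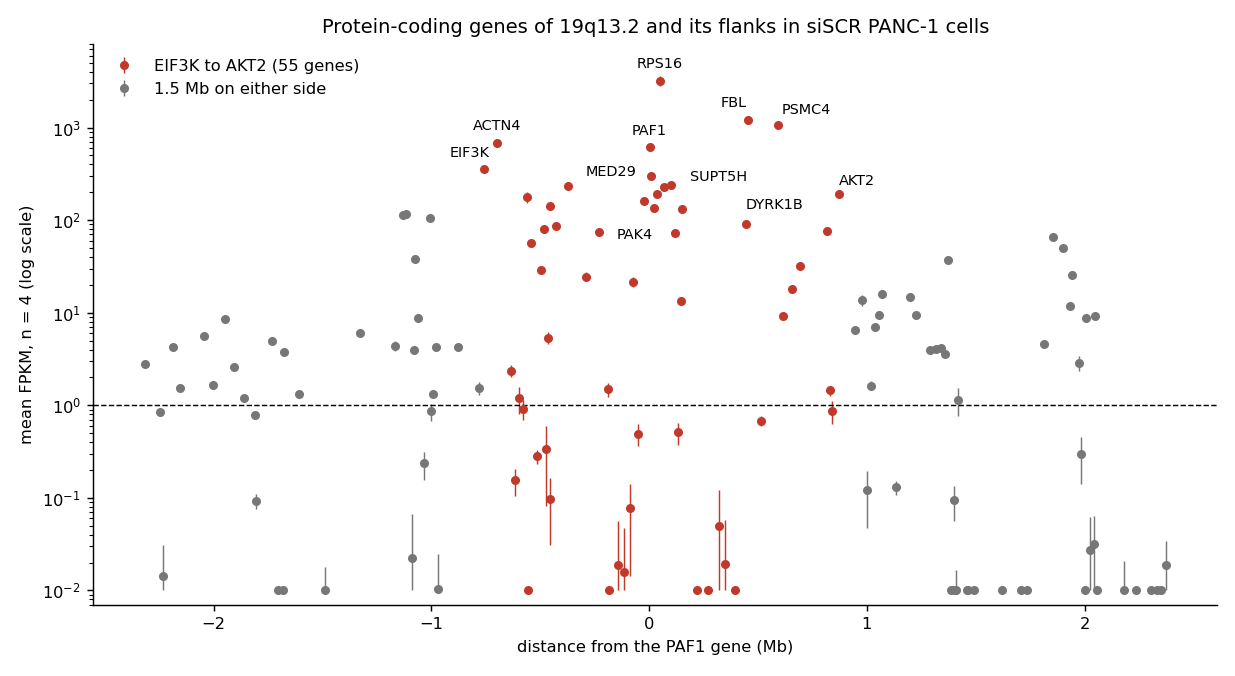
Mean FPKM on a log axis, with SD bars over 4 libraries, of protein-coding genes by distance from PAF1, with the stretch from EIF3K to AKT2 in red and 1.5 Mb on either side in grey. The dashed line is 1 FPKM, values under 0.01 are drawn at 0.01, and 17 red points lie at 100 FPKM or more, against 3 grey points before the stretch and 0 after it.

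The level of a stretch gene can be set against partners of the same complex or family encoded elsewhere. In 11 of 12 such groups, chosen after the levels had been seen, the gene from the stretch was the highest member. The groups do not cover all 36 expressed genes of the stretch. Families of others, such as SARS2 and SIRT2, were not compared, so the count does not describe the stretch as a whole. PSMC4 stood at 37.4 times the median of the 5 other expressed ATPases of the proteasome base, of which PSMC3 was highest at 80.8 FPKM. PAF1 stood at 35.0 times the median of its 5 expressed partners, led by CTR9 at 29.6 FPKM. MED29 stood at 32.9 times the median of 26 expressed Mediator subunits, and FBL at 24.7 times that of 3 box C/D partners. RPS16 stood at 18.5 times the median of 30 other small-subunit ribosomal protein genes. Some of these ribosomal protein genes share sequence with processed pseudogenes, so that their counts may be too low. EIF3K stood at 8.89 times, TIMM50 at 11.5 times and MRPS12 at 9.16 times the medians of their partners. Among kinases, AKT2 had 194 FPKM beside 17.2 FPKM for AKT1, and DYRK1B stood at 43.9 times the median of the other expressed DYRK genes. PAK4, at 74.3 FPKM, was the exception: PAK2 had 75.9 FPKM, and PAK4 was the higher in replicate 1 alone.

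**Figure D3:**
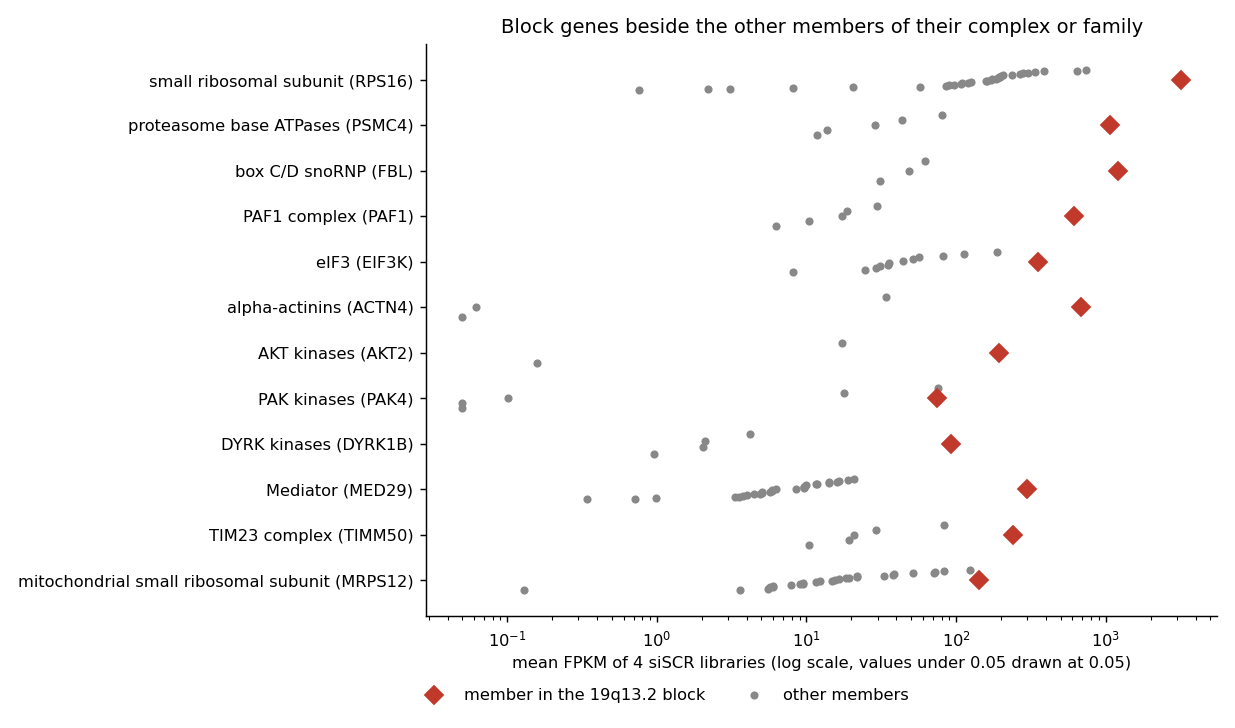
Mean FPKM on a log axis of the member encoded in the 19q13.2 stretch (red diamonds) and of the other members of its complex or kinase family (grey points), with values under 0.05 drawn at 0.05. In 11 of 12 groups, which were chosen after the levels had been seen, the diamond is the rightmost point, and PAK4 lies beside PAK2.

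CDKN2A, whose alternative reading frames encode inhibitors of the cell cycle kinases and of MDM2, had 0 counts in each of the 4 libraries. With 3 counts as the limit that a count of 0 allows in a library, this is a level below 0.029 to 0.040 FPKM. Its neighbour CDKN2B, a related inhibitor, also had 0 counts in every library. MTAP, a methionine salvage enzyme that most cells express, had 2 counts in replicate 1 and 3, 2 and 6 counts in replicates 3, 4 and 5. The long non-coding genes CDKN2A-DT and CDKN2B-AS1 had 0 counts in every library. Genes with clear counts lay on both sides of this gap. KLHL9, a ubiquitin ligase adaptor gene before MTAP, had 544, 344, 501 and 461 counts, and MIR31HG, a non-coding gene between them, had 54, 41, 47 and 46 counts. DMRTA1, beyond CDKN2B, had 76, 49, 41 and 40 counts at 0.44 ± 0.11 FPKM.

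Within 2 Mb of CDKN2A the annotation places 26 protein-coding genes, and 2 of them were expressed: FOCAD at 1.91 ± 0.16 FPKM and KLHL9 at 3.87 ± 0.26 FPKM. At most 3 counts in every library were found for 19, of which 18 had none at all. Over all 19951 protein-coding genes, 52.4% were expressed, 5743 had at most 3 counts in every library and 19.6% had none. Most of the 19 were interferon genes. The region holds 16 type I interferon genes, which most unstimulated cells do not express, and 14 had no count. They were IFNB1, IFNW1, IFNA1, IFNA2, IFNA4, IFNA5, IFNA6, IFNA7, IFNA10, IFNA13, IFNA14, IFNA16, IFNA17 and IFNA21. IFNA8 had 2 counts in 1 library. IFNE, an epithelial interferon, had 2, 5, 8 and 9 counts. The rest of the window comprised MLLT3 with 3 to 13 counts, HACD4 with 2 to 13 counts, and ELAVL2 and AL359922.1 with 0. Whether the counts near 0 at CDKN2A, CDKN2B and MTAP come from lost DNA was not tested.

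Of 18 genes known to be mutated or copied in pancreatic cancer, 16 or 88.9% were expressed, with a median of 11.99 FPKM. Over all protein-coding genes the values were 52.4% and 1.35 FPKM. SMAD4, the shared mediator of TGF-beta signals, had 2.05, 2.20, 2.24 and 1.95 FPKM in replicates 1, 3, 4 and 5 and ranked among the lowest expressed drivers together with BRAF at 1.78 ± 0.15 FPKM. The TGF-beta receptors TGFBR1 and TGFBR2 had 4.92 ± 0.52 and 18.0 ± 1.6 FPKM. GNAS, a G protein subunit, and SF3B1, a splicing factor, were the highest drivers at 58.2 ± 4.8 and 55.3 ± 0.2 FPKM. MYC had 31.4 ± 1.5 FPKM, RBM10 had 21.2 ± 1.8 FPKM and STK11 had 16.4 ± 0.7 FPKM. Among chromatin genes, ARID1A had 15.1 ± 0.8 FPKM, PBRM1 9.499 ± 0.43 FPKM, ARID2 5.54 ± 0.23 FPKM and KDM6A 4.21 ± 0.30 FPKM. The kinase MAP2K4 had 7.91 ± 0.69 FPKM. Besides CDKN2A, RNF43 was the driver below 1 FPKM, at 0.025 ± 0.021 FPKM. RNF43 encodes a membrane ubiquitin ligase that removes Wnt receptors. Another gene of its strand overlaps 59.5% of its exon bases, and reads in such bases may have gone uncounted.

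The same limit touches other genes at 0. More than 50% of the exon bases were shared on the same strand for 11.2% of the 5743 protein-coding genes with at most 3 counts in every library, compared with 0.488% of expressed genes. Of the genes named here with at most 3 counts in every library, INS, AQP1, CELA3B, UGT1A1, HBG2 and AL359922.1 have more than 20% of their exon bases shared in this way. Whether counting used strand is not stated. If it did not, reads in exon bases shared with the opposite strand may also have gone uncounted. Such bases make up 40.7% in MIR31HG, 30.2% in AC099850.3 and 29.3% in SNHG6.

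The keratins KRT8, KRT18 and KRT19 were among the strongest lineage signals. The other duct genes, including the keratins KRT7 and KRT20, ranged from no count to 53.0 FPKM for SOX9. KRT8 had 572.5 FPKM in replicate 1 and 442.5, 390.4 and 439.3 FPKM in replicates 3, 4 and 5. KRT19, the keratin most used to mark pancreatic ducts, had 529.0 FPKM in replicate 1 and 466.3, 400.4 and 420.6 FPKM in the others, and KRT18 averaged 411 ± 53 FPKM. All 3 keratins were highest in replicate 1. SOX9, the transcription factor of ductal progenitors, had 53.0 ± 2.9 FPKM and the tight junction protein CLDN4 21.9 ± 6.6 FPKM. In RNA from whole cultures, fewer expressing cells and less RNA per cell cannot be told apart. EPCAM, an epithelial adhesion molecule, and MUC1, a membrane mucin, were low at 6.75 ± 0.88 and 6.66 ± 0.66 FPKM. Of the 19 duct genes, 8 or 42.1% were expressed, with a list median of 0.66 FPKM, beside 52.4% and 1.35 FPKM over all protein-coding genes. At 1 TPM the count was 12 of 19, beside 11938 of 19951 protein-coding genes, so which share was higher depended on the cut. CFTR and KRT20 had no count in any library, and SPP1, AQP1 and SLC4A4 had at most 3. KRT7 and CDH1, the epithelial cadherin, lay below the expression limit at 0.50 ± 0.08 and 0.94 ± 0.34 FPKM. The CDH1 values were 1.36 FPKM in replicate 1 and 0.54, 0.84 and 1.01 FPKM in the others, so 2 libraries lay above 1 FPKM and 2 below it.

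Acinar genes were low. Of 29, only NR5A2, a nuclear receptor, was expressed, at 1.05 ± 0.22 FPKM, while 21 had at most 3 counts in every library. PRSS1, CPA1, CPB1, CELA2A, CELA3B, CTRB1 and CTRC, which encode digestive proenzymes, were among these 21. Over all protein-coding genes, 52.4% were expressed and 5743 of 19951 had at most 3 counts in every library. BHLHA15 had 0.55 ± 0.30 FPKM, PRSS2 0.29 ± 0.07 FPKM and CEL 0.25 ± 0.15 FPKM. These are the highest members after NR5A2, and PRSS1 and PRSS2 are near-identical copies whose reads may be split. Islet genes were nearly as low, with 2 of 30 expressed. MAFA, a transcription factor of mature beta cells, had 6.59 ± 1.08 FPKM, and SYP, a protein of secretory vesicles, had 3.02 ± 0.48 FPKM. SCG2, CHGB and NKX6-1 had 0.91, 0.71 and 0.55 FPKM. The hormone genes INS, GCG, SST and IAPP had no count, PPY and GHRL had at most 3, CHGA had at most 3 and NEUROD1 had none.

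Endoderm transcription factors were present in part. Of 23 listed for pancreas and gut, 8 or 34.8% were expressed, beside 52.4% of all protein-coding genes. SOX9 was followed by FOXA2, a pioneer factor of endoderm, at 29.5 ± 2.0 FPKM, GATA4 at 14.5 ± 0.2 FPKM and NKX6-2 at 13.7 ± 2.8 FPKM. HHEX had 4.70 ± 0.35 FPKM, and PDX1, the factor that specifies pancreas, had 4.54, 5.41, 4.24 and 4.30 FPKM in replicates 1, 3, 4 and 5. RFX6 had no count, and HNF4A and PROX1 had at most 3 in every library. GATA6, which marks the classical tumour subtype, had 0.18 ± 0.05 FPKM, named after its value was seen. 

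The genes that separate the classical and basal-like subtypes of pancreatic tumours were low on both sides. For comparison, 52.4% of all protein-coding genes were expressed, and 5743 of 19951 had at most 3 counts in every library. Of 24 classical genes, AGR2, a disulphide isomerase of secretory cells, was the only one expressed, at 68.6 ± 8.9 FPKM. LGALS4, TFF3, CDH17 and TFF1 had 0.92, 0.87, 0.59 and 0.36 FPKM. At most 3 counts in every library were found for 17, among them BTNL8, FAM3D, AGR3, CTSE, LYZ, TFF2, ANXA10 and PLA2G10. Of 25 basal-like genes, 5 were expressed, led by the glucose transporter SLC2A1 at 10.6 ± 0.4 FPKM. CTSV, S100A2, AREG and KRT15 followed at 2.84 ± 0.34, 2.27 ± 0.38, 1.31 ± 0.15 and 1.116 ± 0.11 FPKM. The remaining basal-like genes included 16 with at most 3 counts in every library, such as VGLL1, UCA1, LY6D, SPRR3, SPRR1B, LEMD1, CST6 and SERPINB3.

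VIM, a mesenchymal gene, was about as abundant as the keratins KRT8, KRT18 and KRT19, and the other mesenchymal genes were lower. Of 24, 17 or 70.8% were expressed, with a list median of 12.03 FPKM, beside 52.4% and 1.35 FPKM over all protein-coding genes. VIM, the intermediate filament of mesenchymal cells, had 453.2, 466.6, 450.4 and 431.5 FPKM in replicates 1, 3, 4 and 5. S100A4, CD44 and CAV1 were next among those reported here, at 289 ± 43, 117 ± 3 and 106 ± 8 FPKM. SNAI2 and TWIST1, which repress epithelial genes in many cells, had at most 3 counts in every library, whereas ZEB1, with the same role, had 6.71 ± 0.30 FPKM and SNAI1 had 5.90 ± 0.70 FPKM. FN1, fibronectin, had 0.087 ± 0.007 FPKM, ZEB2 had 0.005 ± 0.002 FPKM and CDH2, neural cadherin, 1.71 ± 0.25 FPKM. ZEB1, SNAI1, FN1, ZEB2 and CDH2 were named after their values were seen. In the order VIM, S100A4, CD44 and CAV1, the libraries of neighbours did not overlap, except that the lowest CD44 value, 113.6 FPKM, lay just under the highest CAV1 value, 113.8 FPKM.

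Of 26 surface and serum markers used or proposed in this cancer, 10 or 38.5% were expressed, below the 52.4% of all protein-coding genes. CD44 was the highest, followed by EGFR at 32.7 ± 1.8 FPKM, L1CAM at 20.7 ± 2.5 FPKM, CD276 at 17.8 ± 0.9 FPKM and GPC1, a heparan sulphate proteoglycan, at 14.0 ± 0.7 FPKM. ERBB2 and MSLN, mesothelin, were low at 2.56 ± 0.25 and 1.62 ± 0.27 FPKM. CEACAM5 and MUC13 had no count, and CEACAM6, MUC4, MUC2, NECTIN4 and PROM1 had at most 3 in every library. Of 20 genes that handle gemcitabine, fluorouracil and irinotecan, 14 or 70% were expressed. Their list median was 10.9 FPKM, beside 52.4% and 1.35 FPKM over all protein-coding genes. ABCC1, an efflux pump, had 89.3 ± 6.8 FPKM, and SLC29A1, the equilibrative transporter that takes up gemcitabine, had 74.1 ± 1.3 FPKM. TOP1, the target of irinotecan, had 54.5 ± 1.3 FPKM, and the ribonucleotide reductase subunits RRM1 and RRM2 had 48.9 ± 1.8 and 42.9 ± 5.4 FPKM. CDA, which inactivates gemcitabine, had 0.61 FPKM in replicate 1 and 0.66, 0.14 and 0.20 FPKM in the others. SLC28A3 and UGT1A1 had no count, and SLC28A1 and the efflux pump gene ABCB1 had at most 3.

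A few members of the cancer-testis list and of the oncofetal and stem cell list were expressed. Of 23 cancer-testis genes, 2 were expressed: PRAME at 41.2, 39.4, 40.7 and 39.9 FPKM in replicates 1, 3, 4 and 5, and DDX43, a helicase, at 8.59 ± 0.46 FPKM. The next highest were all below 0.3 FPKM. MAGEA3, MAGEA10, MAGEB2, MAGEC1, MAGEC2, GAGE1, PAGE5 and XAGE1B were among 17 with at most 3 counts in every library. Over all protein-coding genes, 5743 of 19951 had so few and 52.4% were expressed. Of 19 oncofetal and stem cell genes, 6 or 31.6% were expressed, beside 52.4% of all protein-coding genes. HMGA1, a chromatin architectural protein, had 397 ± 7 FPKM, and the RNA-binding proteins IGF2BP2, IGF2BP3 and IGF2BP1 had 31.3 ± 0.9, 10.3 ± 0.4 and 8.47 ± 0.27 FPKM. HMGA2 had 6.76 ± 0.61 FPKM. AFP, NANOG and ALDH1A1 had no count, and GPC3, PROM1 and LGR5 had at most 3.

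Few markers of other cell types reached 1 FPKM, though many had some counts. None of 18 leukocyte genes, 11 endothelial genes or 15 genes of erythroid cells and hepatocytes was expressed. The share over all protein-coding genes was 52.4%. The highest leukocyte gene was CD14 at 0.34 ± 0.18 FPKM, and PTPRC, CD3E, CD3D, MS4A1, CSF1R, NKG7 and GNLY had at most 3 counts in every library. Among endothelial genes ESAM was highest at 0.88 ± 0.08 FPKM, and PECAM1, CDH5, TEK, EMCN and ROBO4 had at most 3 counts. HBA2 and HBA1 had 0.42 and 0.38 FPKM, and HBB, HBG1, HBG2, ALB, APOB, TTR and SERPINA1 had at most 3 counts. Of 14 fibroblast and stellate cell genes, COL1A1 at 10.3 ± 1.9 FPKM and THY1 at 1.44 ± 0.22 FPKM were expressed, whereas COL1A2, DCN, LUM, PDGFRA, PDPN, FAP, POSTN and DES had at most 3 counts. COL1A2 encodes the partner chain of COL1A1 in type I collagen. Of 17 neuronal and glial genes, 4 were expressed: MBP at 9.34 ± 0.32 FPKM, MAP2 at 7.53 ± 0.74 FPKM, SYT1 at 2.63 ± 0.27 FPKM and GRIN1 at 1.19 ± 0.13 FPKM. GAD1 had 0.84 ± 0.13 FPKM. SNAP25, ELAVL3, ELAVL4, STMN2, GFAP, OLIG2 and S100B had at most 3 counts in every library.

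**Figure D4:**
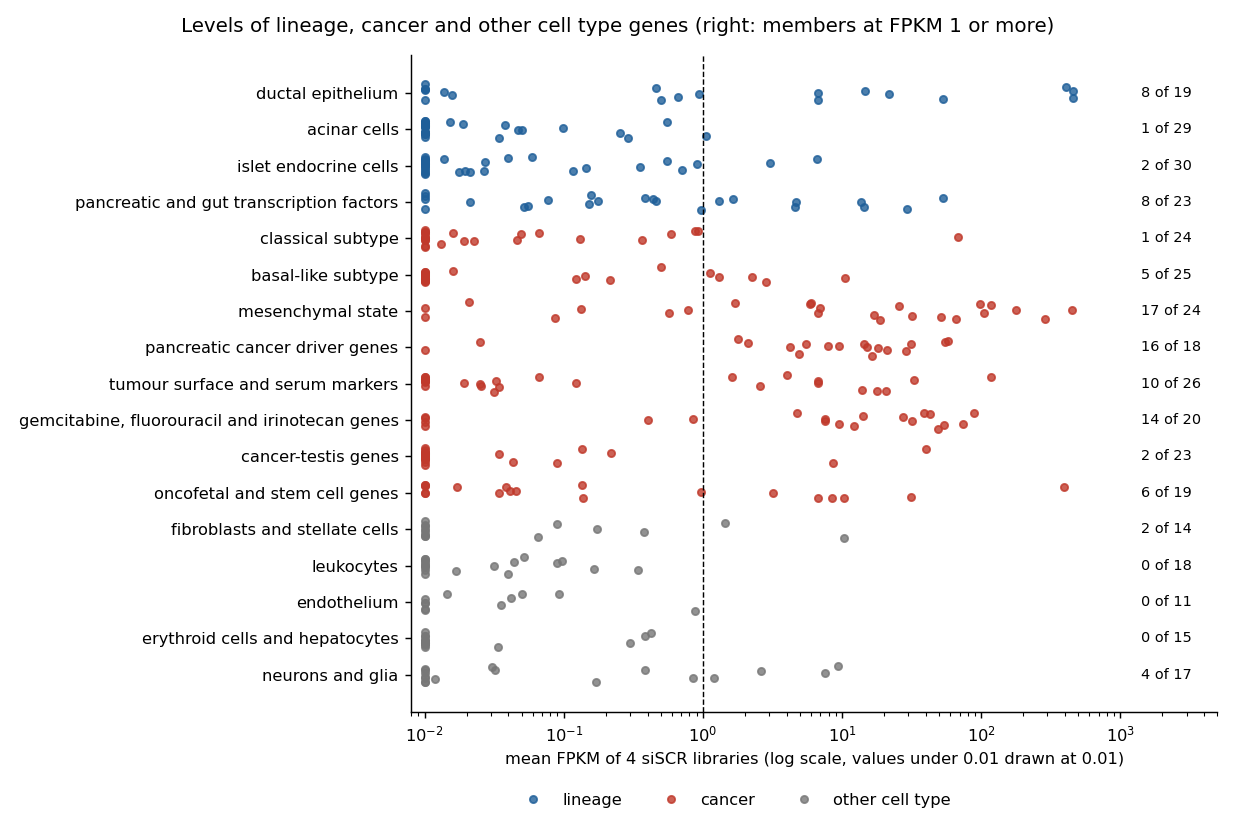
Mean FPKM on a log axis of each member of 17 gene lists, with values under 0.01 drawn at 0.01, a dashed line at 1 FPKM and, at the right, the members at or above it. Driver genes (16 of 18) and mesenchymal genes (17 of 24) lie mostly right of the line, and acinar (1 of 29), classical subtype (1 of 24) and leukocyte genes (0 of 18) mostly left of it.

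Genes of the cell cycle, of lipid synthesis, of heat shock and of endoplasmic reticulum stress were nearly all expressed. Most genes of hypoxia and the immediate early response were expressed, and those of the interferon response in part. All 23 mitosis genes and all 25 S phase genes were expressed, with medians of 37.6 and 29.2 FPKM. TPX2, CDC20, CCNB1, UBE2C and AURKA led the first at 185, 128, 126, 78.2 and 66.6 FPKM, and PCNA, MCM7, MCM3, RRM1 and SLBP led the second at 97.8, 73.6, 52.7, 48.9 and 45.7 FPKM. Of 25 genes of sterol and fatty acid synthesis, 24 were expressed. SCD, a desaturase, had 740.5 FPKM in replicate 1 and 493.6, 545.3 and 462.5 FPKM in the others, and FASN averaged 150 ± 12 FPKM, and DHCR7 and INSIG1 had means of 67.5 and 46.0 FPKM. All 14 heat shock chaperones were expressed, with HSP90AB1, HSPA8, HSPD1, HSP90AA1 and HSPB1 between 149 and 992 FPKM. Of 22 genes of amino acid and endoplasmic reticulum stress, 21 were expressed, led by HSPA5, PSAT1, PDIA4, ATF4 and HYOU1 between 60.2 and 254 FPKM. Hypoxia targets numbered 16 of 21, with LDHA, PGK1, DDIT4, ADM and ANGPTL4 between 35.1 and 244 FPKM and CA9 at no more than 3 counts in every library. Immediate early genes numbered 18 of 23, with CYR61 at 298 ± 8 FPKM, FOSL1 at 138 ± 18 FPKM, ZFP36 at 134 ± 9 FPKM, IER3 at 116 ± 8 FPKM and JUND at 49.7 ± 5.4 FPKM. ZFP36 also lies in the 19q13.2 stretch. Of 31 interferon-stimulated genes, 14 were expressed, with ISG15, IFIT1, DDX58 and IRF7 between 7.01 and 38.3 FPKM, and IFI44, IFI44L and RSAD2 had at most 3 counts. This share, 45.2%, lay near the 52.4% of all protein-coding genes, and which was higher depended on the cut. At 1 TPM it was 19 of 31, beside 11938 of 19951 protein-coding genes. The shares of hypoxia targets, 76.2%, and immediate early genes, 78.3%, lay above 52.4%.

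Among 1548 protein-coding genes that the deposited table assigns to a transcription factor family, 889 were expressed, or 57.4%. The share was 62.2% of 627 C2H2 zinc finger genes and 75% of 48 bZIP genes. It was lower in the developmental families, with 34.0% of 191 homeobox genes, 36.2% of 47 forkhead genes and 38.6% of the bHLH genes. The POU family had 1 of 16 expressed, POU2F1 at 2.26 FPKM, and the PAX family 1 of 9, PAX2 at 16.1 FPKM. HOXC10 led the homeobox genes at 70.3 ± 4.4 FPKM, and HOXC13 had 52.1 ± 5.9 FPKM. BARX1, a homeobox gene of the embryonic stomach, had 48.6 ± 4.5 FPKM, HOXB9 had 45.5 ± 1.9 FPKM and HOXC12 had 36.9 ± 4.3 FPKM. ID1, an inhibitor of bHLH factors, led the bHLH family at 127 ± 32 FPKM. The leading bZIP genes were FOSL1 at 138 ± 18 FPKM and ATF4 at 134 ± 8 FPKM. ETS2 led the ETS family at 115 ± 9 FPKM. These families were described after their values had been seen.

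Replicate 1 differed most from the rest. Counts were scaled to the TMM library size of edgeR and given as CPM, which do not correct for gene length. Over 13538 genes with a mean of at least 1 CPM, the common biological coefficient of variation was 0.0837, and it was 0.0594 over replicates 3, 4 and 5 alone. Leaving out replicate 3, 4 or 5 instead gave 0.0887, 0.0938 and 0.0884. The median coefficient of variation of protein-coding genes at 50 CPM or more was 5.33%, and 4.27% without replicate 1. The first principal component held 48.9% of the variance and placed replicate 1 at 24.9 and the other 3 between -10.5 and -5.04. Pairwise chi-square values per gene were 15.3, 19.6 and 18.3 for replicate 1 against replicates 3, 4 and 5, and 6.19, 8.12 and 4.95 among the other 3. All 6 pairs therefore differed by more than counting error. Replicate 1 was also the deepest library.

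The departure of a library is its log2 CPM minus the mean of the other 3. The CPM filters use the mean of all 4 libraries, so a low gene can pass through the library where it is high. Replicate 1 departed at least 2-fold for 155 genes, or 1.14% of 13538, of which 39 were higher and 116 lower. For replicates 3, 4 and 5 the counts were 68 genes or 0.502%, 39 genes or 0.288%, and 49 genes or 0.362%. Non-coding genes made up much of the lower set in replicate 1. Of the 155 genes, 30 were antisense genes, out of 420 at 1 CPM or more, and 14 were lincRNA genes, out of 321. All of these were lower. Protein-coding genes numbered 84 out of 11941, with 37 higher and 47 lower. Most of these were low genes: at a mean of at least 5 CPM the numbers were 23, 8, 5 and 5 in replicates 1, 3, 4 and 5. Replicate 1 was above all 3 other libraries for 35% of the 13538 genes and below all 3 for 27.6%. Counts for lists below are to be read against these 2 shares.

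Interferon-stimulated genes were higher in replicate 1. Of the 21 with a mean of at least 1 CPM, 17 were above all 3 other libraries, 0 were below them and 8 were at least 2-fold higher, with a median departure of 0.73 beside 0.02 over all 13538 genes. OASL, a relative of the antiviral oligoadenylate synthetases, had 20.1 CPM in replicate 1 and 1.08, 2.07 and 5.93 CPM in replicates 3, 4 and 5. This was the largest departure of a protein-coding gene at a mean of 5 CPM or more, but OASL reached that mean only through replicate 1. OASL was also the gene with the lowest departure of replicate 3. IFIT3, an antiviral protein induced by interferon, had 25.9 CPM in replicate 1 and 3.63, 4.75 and 9.35 CPM in the others. IFIT2 had 45.3 CPM in replicate 1 and 11.96, 11.93 and 18.4 CPM in the others, and IFIT1 had 74.99 CPM in replicate 1 and 40.3, 31.2 and 48.5 CPM in the others. In all 4 genes replicate 5 came next to replicate 1, so the 3 other libraries were not alike either.

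Mitochondrially encoded messenger RNAs were lower in replicate 1. All 13 lay below the 3 other libraries, with a median departure of -0.77, and 4 were at least 2-fold lower. MT-ND2, a subunit of complex I, had 1116 CPM in replicate 1 and 2490, 3009 and 2840 CPM in replicates 3, 4 and 5, and MT-ND1 had 658 CPM in replicate 1 and 1258, 1586 and 1419 CPM in the others. Genes of mitochondrial DNA took 1.38% of the counts of replicate 1 and 2.18%, 2.70% and 2.42% of those of replicates 3, 4 and 5. Ribosomal protein genes took 4.55% of the counts in replicate 1 and 5.08%, 4.55% and 4.28% in the others, so they did not move with it. Long non-coding RNAs of the list had a median departure of -0.29 in replicate 1, and 14 of 22 were below the other libraries. MALAT1 had 10.7 FPKM in replicate 1 and 16.7, 19.7 and 18.4 FPKM in the others, and NEAT1, the RNA of paraspeckles, had 6.84 FPKM in replicate 1 and 13.0, 16.2 and 18.3 FPKM in the others. RNA integrity was not given, and the part of RNA quality in these differences was not tested.

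The ID genes, inhibitors of bHLH factors that are known targets of BMP signals, were also low in replicate 1. ID3 had 22.9 CPM in replicate 1 and 54.5, 48.3 and 49.1 CPM in replicates 3, 4 and 5. ID2 had 2.88 CPM in replicate 1 and 8.16, 6.405 and 7.43 CPM in the others, and ID1 had 104 CPM in replicate 1 and 194, 152 and 168 CPM in the others. No other library overlapped replicate 1 in these 3 genes, and the fourth gene, ID4, went the other way: of 4 ID genes at 1 CPM or more, 3 lay below all other libraries and 1 above. The family was chosen after its values were seen. The remaining genes of largest negative departure were AMH, EGLN2, MT-CO3, MT-ATP6, VAMP1 and RSRP1, between -1.20 and -1.02. EGLN2 shares 30.6% of its exon bases with another gene. On the positive side, DDX60, TLE2, KCND1, CCNG2, FAM171A2 and GDF15 followed the IFIT genes, between 0.87 and 1.41. GDF15, a stress-induced cytokine, had 196 CPM in replicate 1 and 104, 107 and 110 CPM in the others.

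Epithelial and sterol genes were slightly higher in replicate 1, and cell cycle genes slightly lower. Of 12 duct genes at 1 CPM or more, 9 were above the other libraries, with a median departure of 0.31, and CLDN4 had 148 CPM in replicate 1 and 89.0, 85.8 and 84.3 CPM in the others. Of 24 sterol and fatty acid genes, 20 were above the others, with a median departure of 0.23. Among 20 mesenchymal genes the median was 0.10, with 11 above the others and 4 below them. At least 2-fold, 1 of them was higher and 1 lower. SPARC, a matrix protein, had 670 CPM in replicate 1 and 370, 376 and 455 CPM in the others. Of 25 S phase genes, 20 were below the others, and of 23 mitosis genes 18 were, each with a median departure of -0.14. RRM2 had 185 CPM in replicate 1 and 247, 228 and 241 CPM in the others. Heat shock chaperones had a median departure of -0.14, with 9 of 14 below the other libraries. Hypoxia targets, immediate early genes, genes of amino acid and endoplasmic reticulum stress and driver genes had medians between 0.06 and 0.10. The genes of the 19q13.2 stretch did not set replicate 1 apart, since its median of 87.2 FPKM lay between those of replicates 3 and 4.

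**Figure D5:**
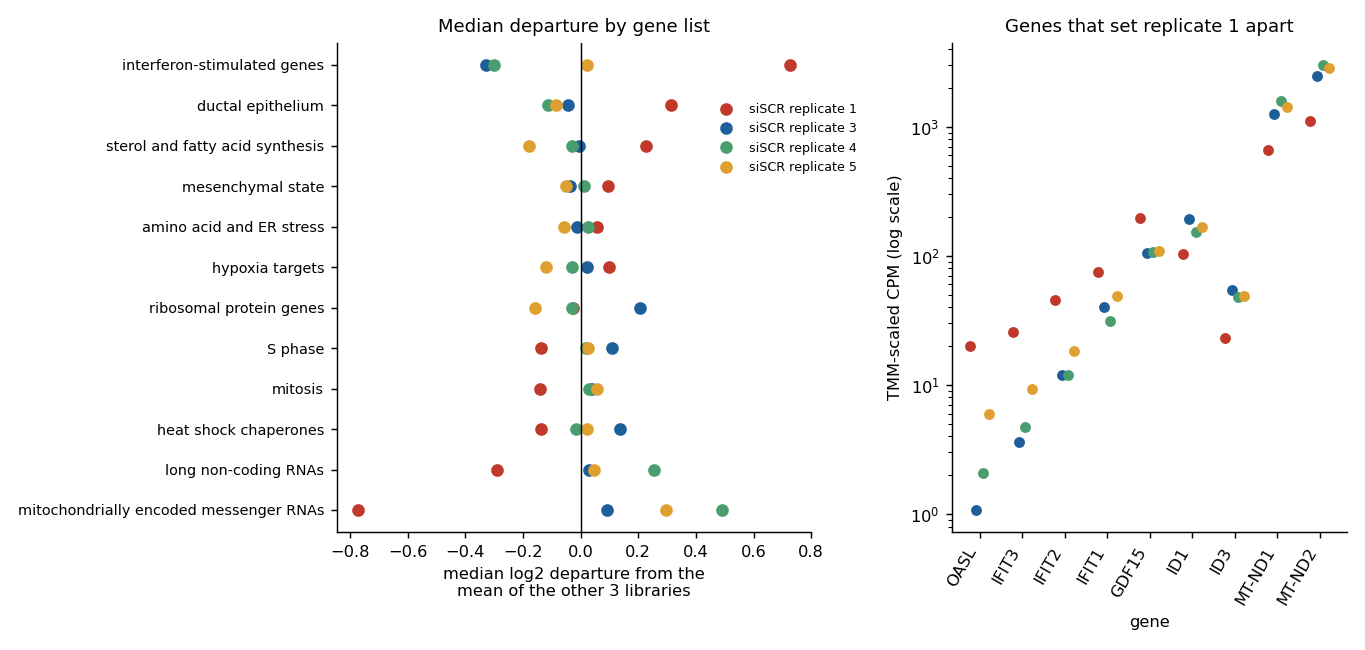
Left, the median log2 departure of each siSCR library from the mean of the other 3, for 12 gene groups. Right, TMM-scaled CPM on a log axis of 9 genes with a point for each library, replicate 1 leftmost: the 5 genes from OASL to GDF15 are highest in replicate 1, and ID1, ID3, MT-ND1 and MT-ND2 are lowest in it.

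The other libraries had departures of their own. The largest in replicates 3, 4 and 5 included U2AF1 and CBSL, which have near-identical copies in the annotation, and SMN1, which has one in SMN2, so that reads could move between copies. U2AF1 had 20.4 CPM in replicate 3 and 6.42, 2.86 and 7.86 CPM in replicates 1, 4 and 5. CBSL had 13.16 CPM in replicate 5 and 9.10, 1.25 and 2.49 CPM in replicates 1, 3 and 4, and SMN1 had 59.9 CPM in replicate 4 and 49.3, 20.6 and 36.2 CPM in replicates 1, 3 and 5. CALCRL, a receptor of adrenomedullin peptides, was lowest in replicate 5 at 5.64 CPM and had 12.9, 9.35 and 10.7 CPM in replicates 1, 3 and 4. Across protein-coding genes, the Spearman correlation of departure with gene length over 11934 genes was 0.02 for replicate 1, -0.28 for replicate 3 and 0.20 for replicate 4. These values are across genes, which are not independent replicates. The lowest coefficients of variation at 50 CPM or more included those of NDC1, MAPKAPK2, SCAP and CUL4A, between 0.20% and 0.52%. These genes were picked as the lowest of 4743 protein-coding genes, whose lower quartile was 3.66%. With 4 libraries, such values do not show that these genes are steadier than others. NDC1, a nuclear pore protein, had 169.3, 169.8, 169.8 and 169.2 CPM in replicates 1, 3, 4 and 5. The most variable at that level were MT-ND2, GDF15, MT-ATP6, MT-ND1 and LENG8, between 31.3% and 36.4%.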

How the data were processed

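Gene counts and FPKM for 8 libraries were deposited by the authors in a table each, for 58735 genes with GENCODE 29 identifiers and GRCh38 coordinates. The submitters' processing notes name fastp, HISAT2 2.0.5 and featureCounts, and the builds GRCh37 and hg19. The coordinates in the tables are those of GRCh38. Deposited FPKM equalled the count divided by listed gene length and library total, on the usual FPKM scale, times 1 constant per library (0.993 to 1.03). The labels name both directional and non-directional libraries, so whether strand was used is not stated. The 4 siSCR columns alone were read. TMM factors and dispersions came from edgeR 4.0.16 and alternative size factors from DESeq2 1.42.0, both in R 4.3.3. Levels and departures were computed in Python 3.11.15 with 0.5 added to each count before log2. The spread and departure calculations were checked on simulated counts.

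Nothing was tested between groups. The part, the 26 gene lists and the departure of replicate 1 were chosen with earlier results of these data known. Genes named are the 25 highest, the 10 highest long non-coding, up to 5 highest and up to 8 with at most 3 counts in each list, all drivers, all protein-coding genes within 2 Mb of CDKN2A, the 10 largest departures of replicate 1 either way, the largest of each other library, and the 5 most and least variable. Some genes that this rule selects are not reported here. Other genes named, the 19q13.2 stretch, the complexes and the transcription factor families were chosen after their values were seen. RefSeq listed promoters for 74.3% of protein-coding genes. This is under the 80% needed, so promoter features were not compared between abundance classes.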

Additional observations from a re-analysis of the deposited data

Results flagged for a closer look

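In 12 of 123 quantities looked at, a single library lay apart from the other 3 by more than Dixon's 95% critical value for 4 samples. Replicate 1 was the library apart in 7, replicate 3 in 4 and replicate 4 in 1. Chance flags about 1 in 20 groups that were not chosen for their values, and these counts cannot be read against that rate. GDF15, CCNG2 and VAMP1 were named because replicate 1 departed most in them, SCAP was named for its small spread, and the gene lists were chosen with earlier results known.

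Replicate 1 had a mean of 5.74 log2 CPM over the duct genes, against 5.42 to 5.43 in the others, and 6.28 over mesenchymal genes, against 6.15 to 6.17. Its mean over mitosis genes was 7.10, against 7.20 to 7.22. GDF15 had 196 CPM in replicate 1, against 104 to 110 CPM, and CCNG2, an atypical cyclin, had 21.5 CPM, against 10.99 to 12.3 CPM. VAMP1, a vesicle protein, had 6.17 CPM in replicate 1, against 12.2 to 12.8 CPM, and the splicing regulator RBM10 had 71.6 CPM, against 84.3 to 85.3 CPM.

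Replicate 3 had a mean of 2.59 log2 CPM over fibroblast genes, against 2.88 to 2.91 in the others, and of 4.55 over all genes at 1 CPM or more, against 4.57 in each of the others. Expressed genes in the 1.5 Mb after the 19q13.2 stretch had a median of 8.69 FPKM in replicate 3, against 8.97 to 9.02 FPKM. PSMC4 had 2626 CPM in replicate 3, against 2499 to 2508 CPM. SCAP, the sterol sensor that escorts SREBP, had 72.2 CPM in replicate 4, against 72.8 to 72.9 CPM.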

How the results depend on the processing

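No paired analysis was possible because only the siSCR libraries were used and no result comes from a test between groups. The number of expressed genes was 11938 at 1 TPM, 11941 at 1 CPM and 11236 at 0.5 FPKM, and leaving out a replicate gave 10421 to 10459. The 20 leading genes held 14.5% when ranked and summed by FPKM. The count of replicate 1 genes at least 2-fold away was 158 with DESeq2 size factors or total counts and 161 with the upper quartile, but 6065 with no filter, and 23 at a mean of 5 CPM, 84 for protein-coding genes, 18 on log2(FPKM + 1) and 82 on log2(FPKM + 0.1). Leaving out replicate 3, 4 or 5 gave 159 to 197. Chosen after seeing the data, the 19q13.2 median was 78.9 FPKM with genes at 0.5 FPKM or more and 85.0 to 89.2 FPKM without 1 replicate, and the highest window stayed 3.48 and 3.54 times the highest elsewhere with 10 and 20 genes. The groups led by a gene of the stretch, also chosen after seeing the data, numbered 12 without replicate 4 and 11 without any other. Of 26 lists, 20 held a count of expressed members within 1.5 times at 1 TPM and 22 at 0.5 FPKM. The lists that moved, acinar, islet, classical, leukocyte, endothelial and erythroid at 1 TPM, have 0 to 2 expressed members. Without replicate 1 the acinar list had 0 expressed members, and the classical list also moved without replicate 4. A count of 0 limits a library to 3 counts, which covers counting error only.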
